A study of Mus musculus with 8 samples.

Results

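The 10 genes described here are direct targets of YAP and TAZ: *Ctgf*, *Cyr61*, *Ankrd1*, *Axl*, *Crim1*, *F3*, *Nt5e*, *Myof*, *Fjx1* and *Asap1*. They were taken by symbol, with no threshold on a value, but were chosen with earlier results of these data known. The table held 23467 genes measured by RNA sequencing in 8 libraries of cultured mouse fetal liver cells. All 10 were present in the table and all 10 passed the filter on low values. Hepatoblasts, the fetal precursors of hepatocytes and of biliary epithelial cells (BECs), were isolated from livers at E14.5 on a B6;129 mixed background and kept on collagen-coated dishes (iHBs). Hepatocyte differentiation (iHPs) was induced with oncostatin M at 12.5 ng/ml, for 5 days by the labels and somewhat longer by the study's methods, and BEC differentiation (iBECs) by culture on Matrigel for 14 days. All cultures were grown with serum, epidermal and hepatocyte growth factor, insulin and dexamethasone.

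The control libraries, labelled wild type, were 1 of iHBs, 1 of iHPs and 1 of iBECs. The 5 mutant libraries, of cells with the genotype Lats1-/-;Lats2f/fl;Alb-cre (L1L2_Alb), were 1 of iHBs, 2 of iHPs and 2 of iBECs. By genotype, *Lats1* is lost in every cell of these embryos, whereas the albumin-driven Cre removes *Lats2* only where albumin is or was expressed, so that other cells of the culture lack *Lats1* and keep *Lats2*. The labels do not say whether the libraries of a stage come from different embryos or cultures, and p-values therefore measure only the spread between these libraries.

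LATS1 and LATS2 are the kinases at the end of the Hippo cascade. They phosphorylate the co-activators YAP and TAZ (the product of *Wwtr1*), which are then held in the cytoplasm or degraded. Unphosphorylated YAP and TAZ enter the nucleus, bind the TEAD factors and activate genes for matrix proteins, growth factor receptors, cytoskeletal regulators and feedback inhibitors of the pathway. In the liver, YAP activity is high in bile duct cells and low in hepatocytes. The question put to these 10 genes was how each was expressed in the libraries labelled L1L2_Alb in each stage, and how each differed between the stages of the control cells.

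TEAD factors recognise the motif GGAATG, which reads CATTCC on the opposite strand. The promoter entries of RefSeq (GRCm38.p6) held 7 of the 10 genes, and *Ctgf*, *Fjx1* and *Asap1* were not matched. Of these 7 windows of 300 bases, 250 before and 50 after the start site, 4 held the motif on either strand, against 14.7% of the 32851 windows of all genes. The 4 promoters are shown because they carry the motif, as the 250 bases before the start, 5′ to 3′ on the strand of the gene, with the motif in capitals. *Cyr61* (Ccn1 in RefSeq) is at chr3:145649986-145650235 on the minus strand, *Ankrd1* at chr19:36119845-36120094 on the minus strand, *Axl* at chr7:25788734-25788983 on the minus strand and *Crim1* at chr17:78199998-78200247 on the plus strand.
Cyr61: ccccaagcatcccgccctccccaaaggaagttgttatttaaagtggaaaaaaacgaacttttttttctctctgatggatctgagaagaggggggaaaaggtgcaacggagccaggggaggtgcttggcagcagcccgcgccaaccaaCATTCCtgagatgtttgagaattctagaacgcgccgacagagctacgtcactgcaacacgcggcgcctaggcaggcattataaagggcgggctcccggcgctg
Ankrd1: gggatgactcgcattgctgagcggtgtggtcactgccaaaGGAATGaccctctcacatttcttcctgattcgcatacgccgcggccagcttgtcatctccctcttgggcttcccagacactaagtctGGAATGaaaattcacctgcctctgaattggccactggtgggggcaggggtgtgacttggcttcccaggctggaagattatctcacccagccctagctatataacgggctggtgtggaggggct
Axl: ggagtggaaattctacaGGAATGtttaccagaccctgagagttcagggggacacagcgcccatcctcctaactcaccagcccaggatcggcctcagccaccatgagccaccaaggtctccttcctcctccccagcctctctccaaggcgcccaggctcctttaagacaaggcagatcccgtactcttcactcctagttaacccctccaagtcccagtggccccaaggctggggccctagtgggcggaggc
Crim1: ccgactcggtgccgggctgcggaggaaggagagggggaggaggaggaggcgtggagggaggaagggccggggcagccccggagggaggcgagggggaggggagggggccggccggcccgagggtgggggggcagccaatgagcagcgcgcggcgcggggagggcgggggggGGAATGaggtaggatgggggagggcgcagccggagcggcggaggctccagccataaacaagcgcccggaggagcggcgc
The motif began at position -103 from the start site in *Cyr61*, in the reverse orientation, at -210 and -123 in *Ankrd1*, at -233 in *Axl* and at -79 in *Crim1*. The start of the *Axl* entry, unlike those of the other genes matched, was not found in the gene's GENCODE transcripts, so that its position of -233 rests on the RefSeq start alone. The windows of *F3*, *Nt5e* and *Myof* did not hold these letters. A match of the letters is a description of the sequence and not evidence of binding, and TEAD factors also act from distant enhancers that these windows do not cover.

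The values are RPKM, in which read numbers are divided by gene length and library size, and can therefore be compared between genes. Depth recovered from the values ran from 18436865 to 33229075 reads per library. In bulk RNA, fewer cells of a type and less RNA per cell cannot be told apart. *Lats1* was at 5.38 to 11.2 RPKM in the controls and at 7.12 to 22.7 RPKM in the mutants, and *Lats2* at 6.90 to 10.1 RPKM and 10.9 to 27.6 RPKM, respectively. *Lats2* was thus above the control of its stage in 5 of 5 libraries labelled L1L2_Alb, and *Lats1* in 4 of 5, being lower in the second iHP library with 7.12 against 11.2 RPKM. Reads per exon were not analysed here, so that these values do not show how much of either gene was deleted. *Lats2* is also a known YAP/TAZ target, and the reason for the higher values was not tested. Hepatocyte and biliary markers were present in every library, with *Alb* between 524 and 6162 RPKM and *Krt19* between 83.7 and 493 RPKM, and the markers of other cells are given further on.

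*Ctgf*, *Cyr61* and *Ankrd1* had the highest levels of the 10 genes. *Ctgf* and *Cyr61* encode secreted proteins of the CCN family that bind integrins and growth factors, and they are commonly used readouts of YAP activity. *Ctgf* was at 523 RPKM in control iHB, 387 RPKM in control iHP and 201 RPKM in control iBEC. The libraries labelled L1L2_Alb held 2469 RPKM in iHB, 1183 and 1168 RPKM after oncostatin M (iHPs) and 412 and 771 RPKM after culture on Matrigel (iBECs). Each mutant library thus lay above the control of its stage, although the lower mutant iBEC value fell between control iHB and control iHP. In L1L2_Alb iHB, *Ctgf* ranked 19 by RPKM among the 23467 genes, against 223 in control iHB. *Ctgf* was 4.72-fold higher in iHB, 3.05- and 3.02-fold higher in the iHP libraries and 2.05- and 3.83-fold higher in the iBEC libraries, each against the 1 control of the stage.

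*Cyr61* followed with 194, 161 and 91.4 RPKM in control iHB, iHP and iBEC. The mutant libraries held 848 RPKM in iHB, 469.7 and 495 RPKM in iHPs and 481 and 349 RPKM in iBECs. The lowest mutant value was above the highest control value, so that the genotypes did not overlap even across stages. The ratio to the control of the stage was 4.36 in iHB, 2.92 and 3.07 in iHPs, and reached 5.26 and 3.82 in the iBEC libraries. The mutant iHP libraries and the first mutant iBEC library were next to each other in this order and differed less than the pair of iBEC libraries.

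*Ankrd1*, a nuclear and sarcomeric ankyrin-repeat protein, is named with *Ctgf* and *Cyr61* in many YAP signatures but had a different pattern. It was at 269.5, 333 and 201 RPKM in control iHB, iHP and iBEC. The mutants held 376 RPKM in iHB, 303 and 567 RPKM in iHPs and 494 and 296 RPKM in iBECs. The mutant iHP libraries lay on either side of their control, at 0.909 and 1.70 times its value, and the genotypes overlapped. In iBECs the ratios were 2.45 and 1.47.

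**Figure D1:**
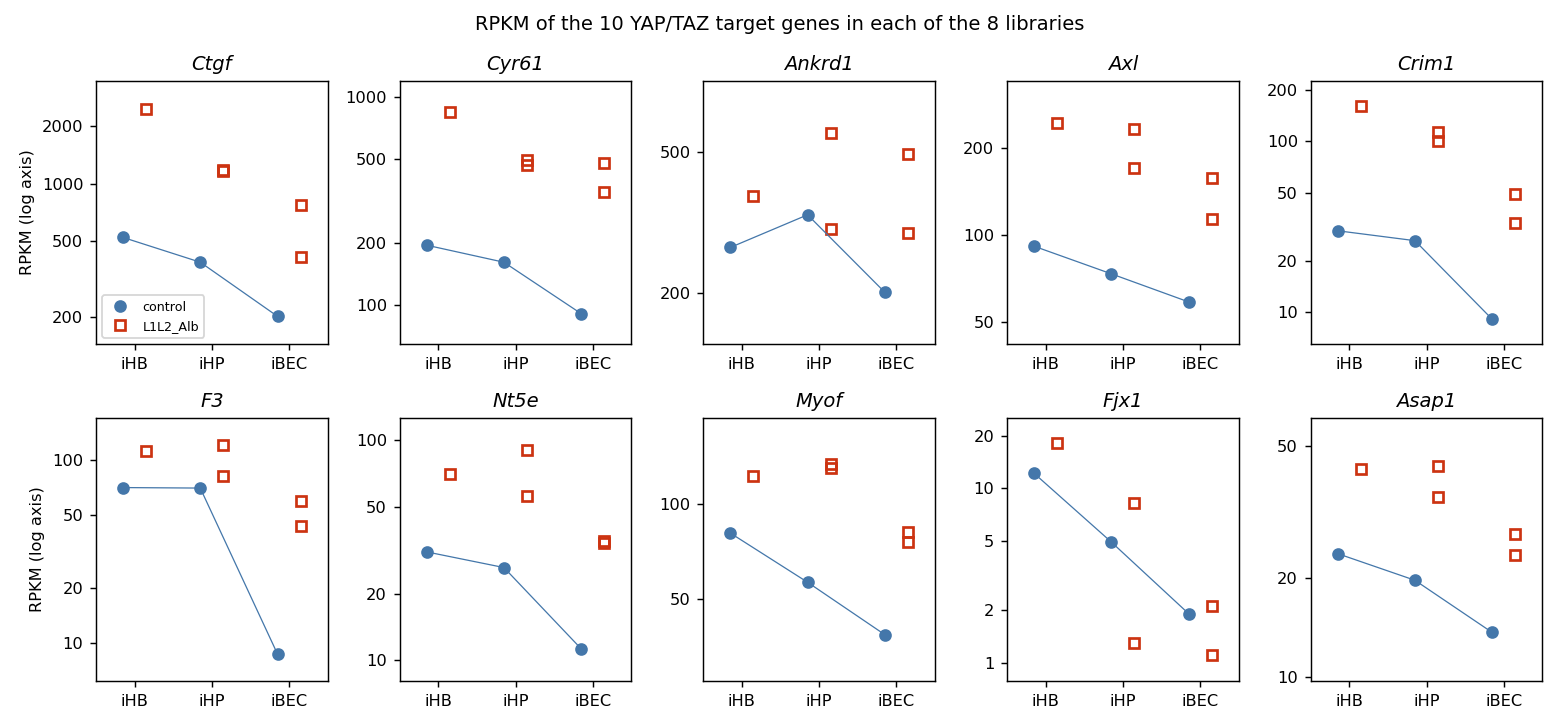
RPKM on log axes of the 10 target genes by stage, with 1 circle per control library joined by a line and 1 open square per L1L2_Alb library. For *Cyr61*, *Axl*, *Crim1* and *Nt5e* the squares lie above all circles, and for *Ankrd1* and *Fjx1* a square lies below the control of its stage.

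The receptors and membrane proteins came next. *Axl* encodes a receptor tyrosine kinase for the ligand GAS6. It was at 91.4, 73.4 and 58.7 RPKM in control iHB, iHP and iBEC, and at 242 RPKM in L1L2_Alb iHB, 169 and 231 RPKM in L1L2_Alb iHPs and 113 and 158 RPKM in L1L2_Alb iBECs. Mutant and control libraries did not overlap, and the ratio to the control of the stage ranged from 1.93 to 3.15.

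*Crim1*, a transmembrane protein with cysteine-rich repeats that binds bone morphogenetic proteins, had the largest range among the 10 genes, 17.8-fold from control iBEC to L1L2_Alb iHB. It was at 29.9, 26.1 and 9.06 RPKM in control iHB, iHP and iBEC. In the mutants it was at 161 RPKM in iHB, 100.01 and 113 RPKM in iHPs and 33.4 and 49.3 RPKM in iBECs. The ratios were 5.38 in iHB, 3.83 and 4.32 in iHPs and 3.69 and 5.44 in iBECs, so that *Crim1* was at least 3.69 times its control in each mutant library.

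*F3* encodes tissue factor, the membrane receptor that starts coagulation. Its controls were close in iHB and iHP, at 70.4 and 70.0 RPKM, and far lower in iBEC, at 8.69 RPKM. The mutants were at 111 RPKM in iHB, 121 and 81.2 RPKM in iHPs and 43.4 and 59.6 RPKM in iBECs. Both mutant iBEC libraries were above their own control and below the controls of the other two stages. The ratio was 1.58 in iHB and 1.73 and 1.16 in iHPs, against 4.99 and 6.85 in iBECs.

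*Nt5e* encodes CD73, the cell-surface enzyme that forms adenosine from AMP. It was at 31.1, 26.4 and 11.2 RPKM in control iHB, iHP and iBEC, and at 70.6 RPKM in L1L2_Alb iHB, 55.9 and 90.6 RPKM in L1L2_Alb iHPs and 34.7 and 34.2 RPKM in L1L2_Alb iBECs. The genotypes did not overlap, and the ratios lay between 2.12 and 3.44. *Myof*, a ferlin that takes part in membrane fusion and repair, was at 80.7, 56.4 and 38.5 RPKM in the controls and at 123 RPKM in mutant iHB, 129.8 and 134 RPKM in mutant iHPs and 75.5 and 81.3 RPKM in mutant iBECs. Here the mutant iBEC libraries were level with control iHB, at 0.935 and 1.01 times its value, while each mutant library was 1.52 to 2.37 times the control of its stage.

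The last members are *Asap1* and *Fjx1*, of which *Fjx1* had the lowest level of the 10 genes in each library. *Asap1* encodes a GTPase-activating protein for Arf proteins that acts at focal adhesions. It was at 23.6, 19.6 and 13.7 RPKM in control iHB, iHP and iBEC, and at 42.6 RPKM in mutant iHB, 34.98 and 43.4 RPKM in mutant iHPs and 23.4 and 27.1 RPKM in mutant iBECs. Its ratios were the most even, from 1.71 to 2.21. *Fjx1*, a Golgi glycoprotein related to a planar polarity regulator of Drosophila, was at 12.2, 4.92 and 1.91 RPKM in the controls. The mutants held 18.1 RPKM in iHB, 8.18 and 1.30 RPKM in iHPs and 1.10 and 2.11 RPKM in iBECs. The mutant iHP libraries thus lay on either side of their control, at 366 and 67 reads against 334 reads in the deeper control library. *Fjx1* was 1.66 times its control in the first and 0.264 times in the second of them.

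Across the stages, 7 of the 10 genes were higher in L1L2_Alb and 0 were lower. The genotype effect was fitted by limma on log2(RPKM + 1) over 13421 genes with stage as a block, a scale that understates the change of genes near 1 RPKM, and p was adjusted over all genes. The spread in this fit comes from the paired mutant libraries and from differences of the genotype effect between stages. At an adjusted p under 0.05, 6.2% of all genes tested were higher and 3.37% lower. The median log2 fold change was 1.28 over the members and 0.06 over all genes tested. *Crim1* had the largest change among the members (log2 fold change 2.12, standard error 0.187, adjusted p = 0.00118 by limma), which ranked 29 by p among all genes. *Cyr61* rose by 1.93 (standard error 0.201, adjusted p = 0.00222) and *Ctgf* by 1.73 (standard error 0.261, adjusted p = 0.00796) on the log2 scale. *Nt5e* had 1.38 (standard error 0.198, adjusted p = 0.00647) and *Axl* 1.32 (standard error 0.192, adjusted p = 0.00676). These 5 genes changed by at least 2-fold, as did 4.2% of all genes tested in this direction. *Myof* rose by 0.97 (standard error 0.168, adjusted p = 0.0123) and *Asap1* by 0.88 (standard error 0.162, adjusted p = 0.016).

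The other 3 members did not pass the threshold. On the log2 scale *F3* was at 1.24 (standard error 0.367, adjusted p = 0.0722), *Ankrd1* at 0.58 (standard error 0.279, adjusted p = 0.237) and *Fjx1* at -0.06 (standard error 0.436, adjusted p = 0.955 by limma, unadjusted p = 0.902), the only member below 0. By direction alone, 8 of 10 genes were above the control of the stage in 5 of 5 mutant libraries, against 22.9% of all genes tested, with *Ankrd1* above it in 4 and *Fjx1* in 3. In *Cyr61*, *Axl*, *Crim1* and *Nt5e* all 5 mutant libraries exceeded all 3 controls, as they did in 9.18% of genes tested.

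The calls depended on which stages were in the fit, and a fit without a stage also has fewer libraries. *Cyr61*, *Crim1* and *Nt5e* kept an adjusted p under 0.05 in each of the 14 alternatives run, with a highest value of 0.0463 for *Nt5e*. Without the iHP stage, which holds 2 of the mutant libraries and 1 control, only these 3 of the 10 genes were called. Over all genes, 113 were then called higher, against 832 in the full fit. *Ctgf* was at 0.0848, *Axl* at 0.0721, *Myof* at 0.114 and *Asap1* at 0.105. Their log2 fold changes there were 1.80, 1.27, 0.83 and 0.83, respectively. Without the iHB stage 5 were called (228 of all genes called higher), with *Ctgf* and *Asap1* lost. Without the iBEC stage also 5 were called (523 of all genes), with *Myof* and *Asap1* lost. *Fjx1* had a log2 fold change of 0.28 without the second mutant iHP library, the one in which it was lowest against its control, with an adjusted p of 0.516.

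**Figure D2:**
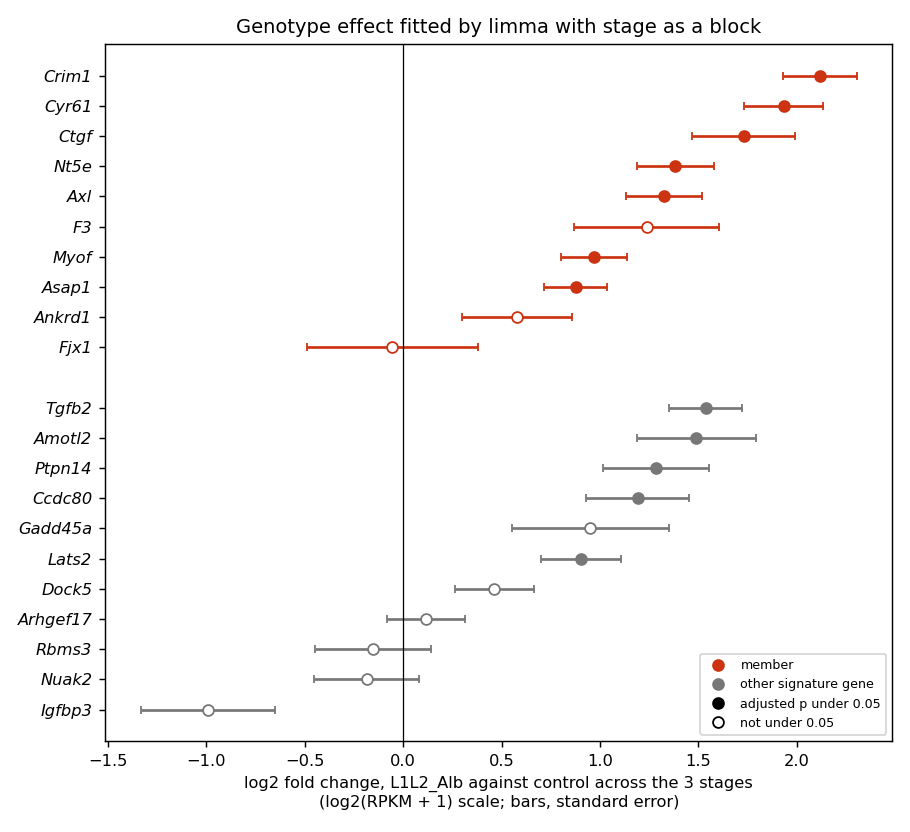
Log2 fold change of L1L2_Alb against control across the 3 stages for the 10 members (red) and the 11 other signature genes tested (grey), with bars for the standard error and filled points for an adjusted p under 0.05 by limma. 7 members and 5 other signature genes are filled, all to the right of 0.

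**Figure D3:**
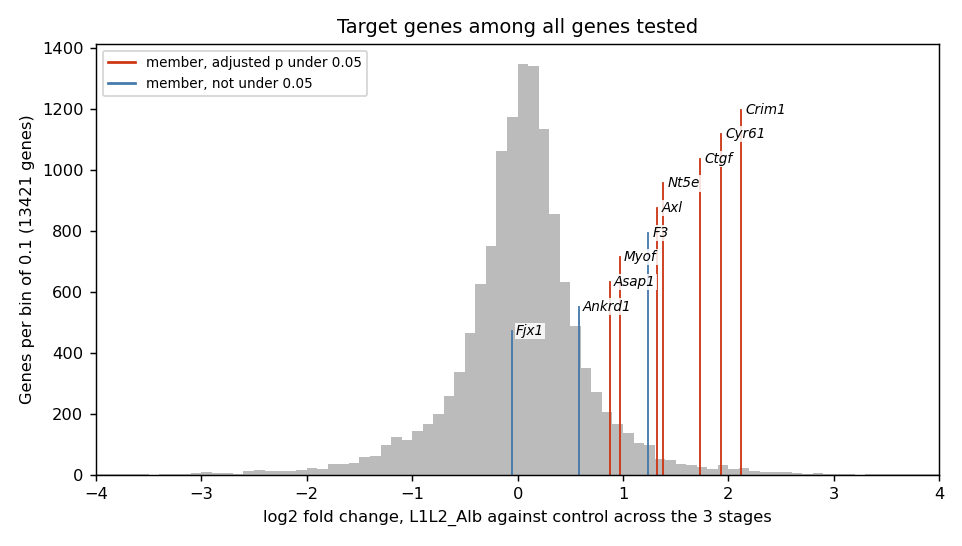
Number of genes per 0.1 of log2 fold change (L1L2_Alb against control) among the 13421 genes tested, with lines at the 10 members whose height is set for legibility. The members run from -0.06 for *Fjx1* to 2.12 for *Crim1*, and their median of 1.28 lies to the right of the bulk of genes, whose median is 0.06.

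Within each stage, with 1 control library, the members were compared by their median and by the count that moved by at least 1 on the log2(RPKM + 1) scale. In L1L2_Alb iHB the median difference of the members from control was 0.99, against -0.09 over all genes, and 5 of 10 were higher by at least 1, against 5.6% of all genes. In the iHP libraries the medians were 1.12 and 1.41 (0.01 and -0.03 over all genes), with 6 of 10 in the first (6.73% of all genes) and 7 of 10 in the second (10.9%). In the iBEC libraries they were 1.16 and 1.47 (0.22 and 0.26 over all genes), with 6 of 10 (8.29%) and 7 of 10 (7.44%). A decrease of that size occurred in 1 member and 1 library, *Fjx1* in the second L1L2_Alb iHP library, where 15.2% of all genes were that much lower. In the other libraries no member was that much lower, against 8.99% of all genes in iHB, 10.9% in the first iHP library and 3.2% and 2.31% in the iBEC libraries. A limma contrast within each stage, chosen after seeing the data, can be had from the fit of the 6 conditions, if lone libraries are assumed to vary like the paired mutant libraries. It called *Crim1* higher in iHPs (log2 fold change 1.98, standard error 0.378, adjusted p = 0.0397), against 1.1% of all genes. This call was lost when any 1 of the 4 paired libraries was left out, with adjusted p from 0.0674 to 0.115. In iHB and iBEC 0 members were called, against 0.179% and 0.0671% of all genes called higher. No member was called lower in a stage, against 0.432% of all genes in iHB, 2.41% in iHPs and 0.0149% in iBECs. At an unadjusted p under 0.05, 5 members were higher in iHB (4.12% of all genes), 7 in iHPs (7.86%) and 8 in iBECs (6.15%). At that threshold 0 were lower in each stage, against 6.44% of all genes in iHB, 10.9% in iHPs and 2.38% in iBECs.

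The genotype effect was not shown to differ between stages for any member. In the moderated F test of limma on the 6 conditions, which has 2 residual degrees of freedom, 0 of 13421 genes passed an adjusted p of 0.05, with 0.122 as the smallest value, and 733 genes (5.46%) had an unadjusted p under 0.05. Among the members *F3* was the only gene in that number, with an unadjusted p of 0.0226 and an adjusted p of 0.727. Its mean log2 difference from control was 0.65 in iHB (1 library), 0.50 ± 0.402 in iHPs (SD, n = 2) and 2.42 ± 0.317 in iBECs (SD, n = 2). By contrast *Crim1* had 2.39 in iHB, 1.98 ± 0.122 in iHPs and 2.05 ± 0.388 in iBECs (SD, n = 2 each).

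Among the control stages, expression of the members was lowest in iBECs for each of the 10 genes. Of the controls, iBEC also held the least *Krt7* (62.3 RPKM, 399.6 in iHB), *Krt19* (83.7 and 273), *Epcam* (2.96 and 55.0) and *Cldn4* (41.5 and 150). It held the most *Spp1* (23271 and 1706 RPKM), *Sox9* (13.3 and 5.53), *Alb* (6162 and 2485) and *Hnf4a* (99.5 and 48.4). *Apob* and *Cps1* were highest in control iHP. Compared with control iHB, control iBEC was lower in 10 of 10 members (79.8% of all genes tested) and lower by at least 1 on the log2 scale in 7, namely *Ctgf*, *Cyr61*, *Crim1*, *F3*, *Nt5e*, *Myof* and *Fjx1* (14.9%). No member was that much higher, against 4.46% of all genes. The median difference was -1.23 over the members and -0.44 over all genes. *F3* was 8.10-fold lower in RPKM, *Fjx1* 6.38-fold, *Crim1* 3.30-fold, *Nt5e* 2.76-fold and *Ctgf* 2.59-fold, whereas *Ankrd1* was 1.34-fold lower. After upper-quartile scaling these medians were -0.76 and -0.04, 3 members were lower by at least 1, and *Ankrd1* was higher in control iBEC than in control iHB. Quantile normalization gave -0.92 and -0.04, with 10 of 10 lower and 5 by at least 1. Control iHP differed less from control iHB. It was lower in 9 of 10 members (76.2% of all genes), the exception being *Ankrd1*, with a median of -0.26 against -0.18 over all genes, and *Fjx1* was the 1 member lower by at least 1 (1.65%). Upper-quartile scaling left 7 members lower there, with *Crim1* and *F3* joining *Ankrd1* above control iHB and none lower by at least 1. The median was then -0.07 over the members and -0.0018 over all genes. Control iBEC against control iHP gave a median of -0.88 against -0.25, with 10 of 10 members lower (70.3%) and *Crim1*, *F3*, *Nt5e* and *Fjx1* lower by at least 1 (8.98%) and none that much higher (3.6%). After either scaling this median was -0.61 (upper-quartile) or -0.71 (quantile), against -0.02 over all genes in each, with 10 of 10 members still lower but 2 by at least 1. The percentages of all genes in this paragraph are for the values as deposited, and none is given after scaling.

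In the fit of the 6 conditions, with the same assumption on lone libraries, limma called *F3* lower in control iBEC than in control iHB (-2.88, standard error 0.468, adjusted p = 0.0319), against 0.685% of all genes, and no member higher (1.01%). Without any 1 of the 4 paired mutant libraries it was not called, with adjusted p from 0.0624 to 0.0782. Between control iBEC and control iHP 0 members were called by limma, against 0.127% of all genes lower and 0.179% higher. At an unadjusted p under 0.05, 3 members were lower there, against 5.2% of all genes. Between control iHP and control iHB 0 members were called, and 0 of all genes. At an unadjusted p under 0.05 that count of members was also 0, against 1.25% of all genes higher and 0.894% lower. The additive limma fit of stage and genotype uses libraries of both genotypes and leaves more residual degrees of freedom. It assumes the same genotype effect in each stage, so that its stage differences are not those of the controls alone. Compared with iHB, iBEC was lower in 4 members at an adjusted p under 0.05, against 2.78% of all genes. The log2 differences were -1.80 for *Crim1* (standard error 0.233, adjusted p = 0.00472), -1.79 for *Ctgf* (standard error 0.325, adjusted p = 0.0184), -1.18 for *Nt5e* (standard error 0.247, adjusted p = 0.0312) and -2.56 for *Fjx1* (standard error 0.544, adjusted p = 0.0321). No member was higher, against 2.94% of all genes. *F3* had -1.80 with an adjusted p of 0.0609, *Cyr61* -1.03 with 0.0533, *Myof* -0.84 with 0.0565, *Asap1* -0.75 with 0.0728 and *Axl* -0.77 with 0.107. The count depended on single libraries and on the filter. It was 8 without the second L1L2_Alb iHP library, 2 without either L1L2_Alb iBEC library, 2 with upper-quartile scaling and 1 without the filter on low values, and *Crim1* was called in each of these. Between iBEC and iHP, *Crim1* (-1.39, adjusted p = 0.0135) and *Nt5e* (-1.07, adjusted p = 0.0377) were lower, against 1.67% of all genes, and *Nt5e* was not called without either L1L2_Alb iBEC library or without the filter. Between iHP and iHB, limma called 0 of 13421 genes. At an unadjusted p under 0.05 there were 1158 genes (8.63%), 3 members among them, *Ctgf*, *Cyr61* and *Fjx1*.

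The mutant iBECs and iHPs, with 2 libraries each, were also compared. Both iBEC libraries were below both iHP libraries in 7 of 10 members, *Ctgf*, *Axl*, *Crim1*, *F3*, *Nt5e*, *Myof* and *Asap1*, against 24.6% of all genes tested. None of these passed the threshold in limma, by which 0.507% of all genes were lower and 3.16% higher in iBEC. At an unadjusted p under 0.05, 5 members were lower, against 6.46% of all genes. *Crim1* came closest with a log2 difference of -1.37 (standard error 0.309, adjusted p = 0.0617), followed by *Nt5e* with -1.03 (adjusted p = 0.144).

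Set against control iHB, the starting culture, the mutant libraries fell into groups of genes. *Cyr61* was at 2.47 and 1.80 times control iHB in the L1L2_Alb iBECs. *Crim1*, *Nt5e*, *Axl* and *Ankrd1* were also above control iHB there, between 1.10- and 1.83-fold. *Asap1* and *Myof* were close to it, at 0.990 and 1.15 times and at 0.935 and 1.01 times. *Ctgf* was at 0.789 and 1.48 times, *F3* at 0.616 and 0.846 times and *Fjx1* at 0.0901 and 0.173 times. No test was made of these ratios.

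**Figure D4:**
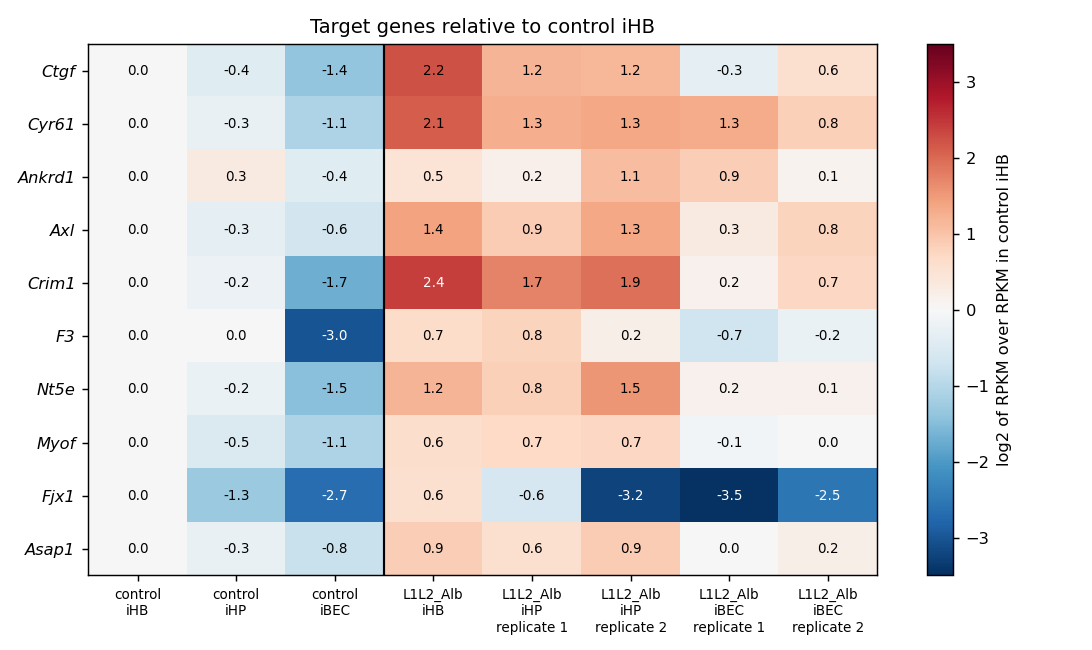
Log2 of the RPKM of each target gene over its RPKM in control iHB, with the control libraries left of the line and the L1L2_Alb libraries right of it. *Ctgf*, *Cyr61* and *Crim1* are above 2 in L1L2_Alb iHB, and *F3* and *Fjx1* are negative in control iBEC and in both L1L2_Alb iBEC libraries.

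Across the 8 libraries, which share stages and genotypes so that no p is given, the members differed in how alike their patterns were. On log2(RPKM + 1), *Crim1* and *Asap1* had a Pearson r of 0.988 although *Asap1* moved far less, *Nt5e* and *Asap1* 0.984 and *Ctgf* and *Crim1* 0.977. *Cyr61* was nearest to *Axl* (r = 0.923) and *F3* to *Myof* (r = 0.849). *Ankrd1* and *Fjx1* stood apart, with *Nt5e* (r = 0.749) and *F3* (r = 0.523) as their nearest members and an r of -0.272 with each other. Among all other genes tested, as deposited, the patterns most like *Ctgf* were those of *Eif2b2*, *Myl12a* and *Mbnl3* (r = 0.995 each). *Myl12a*, a regulatory light chain of non-muscle myosin, was at 361, 298 and 157 RPKM in control iHB, iHP and iBEC and at 1078 RPKM in L1L2_Alb iHB. For *Cyr61* they were *Tbc1d10a* (r = 0.989), *Ildr2* (r = 0.983) and *Traf3ip2* (r = 0.978), and for *Ankrd1*, at lower values, *Ndufs3* (r = 0.944), *Coq5* (r = 0.935) and *Lrrc57* (r = 0.93). This order depended on the scaling. After upper-quartile scaling *Myl12a* and *Mbnl3* ranked 1 and 4 for *Ctgf* and *Eif2b2* 11, whereas *Ildr2*, *Traf3ip2* and *Tbc1d10a* ranked 1, 3 and 5 for *Cyr61*. For *Ankrd1*, *Coq5*, *Ndufs3* and *Lrrc57* then ranked 5, 18 and 23.

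The other genes of the pathway were read from a 22-gene YAP/TAZ signature that holds the 10 members. Of its other 12 genes, 11 were tested and *Foxf2* was under the filter, at 0.0755 to 1.06 RPKM. The count called higher was 5 of 11 and the count called lower 0, against 6.2% and 3.37% of all genes tested. *Tgfb2*, the ligand TGFβ2, rose by 1.54 on the log2 scale (standard error 0.187, adjusted p = 0.00373 by limma), from 7.83, 5.07 and 1.18 RPKM in control iHB, iHP and iBEC to 27.9 RPKM in mutant iHB, 17.6 and 20.1 RPKM in mutant iHPs and 4.39 and 3.93 RPKM in mutant iBECs. It was below control iHB in both mutant iBECs, and its ratio to the control of the stage held between 3.32 and 3.96. *Amotl2*, which binds and retains YAP, had 1.49 (adjusted p = 0.0223), and *Ptpn14*, a phosphatase that also binds YAP, 1.28 (adjusted p = 0.0248). *Ccdc80*, a secreted matrix protein, had 1.19 (adjusted p = 0.0288) and *Lats2* 0.90 (adjusted p = 0.0312). *Amotl2*, *Lats2* and *Ptpn14*, which act as inhibitors of YAP, are known feedback targets, and *Lats2* is also the floxed gene of the L1L2_Alb genotype. Of the 14 alternatives, *Tgfb2* was called in 13, *Amotl2*, *Ptpn14* and *Ccdc80* in 9 each and *Lats2* in 8. Without the second L1L2_Alb iBEC library *Amotl2*, *Ptpn14* and *Lats2* were not called, and without the first L1L2_Alb iHP library *Ccdc80* was not. The 6 genes tested and not called ran from *Igfbp3*, with -0.99 (adjusted p = 0.107, unadjusted p = 0.0185) and lower than control in 5 of 5 libraries, to *Gadd45a*, with 0.95 (adjusted p = 0.175) and higher in 5 of 5. Of all genes tested, 10.1% were lower and 22.9% higher in 5 of 5. In iHB *Igfbp3* was nearly level with control, at 113.9 against 115.2 RPKM.

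Of 8 genes for the effectors, their partners and *Lats1*, 3 were called higher and 0 lower, against 6.2% and 3.37% of all genes tested. Those called higher were *Tead1* (1.15, adjusted p = 0.0276), *Tead4* (1.04, adjusted p = 0.0153) and *Wwtr1*, which encodes TAZ (0.68, adjusted p = 0.0363). Across the 14 alternatives *Tead4* was called in 11, *Tead1* in 9 and *Wwtr1* in 7. *Tead1* and *Wwtr1* were not called without the second L1L2_Alb iBEC library, and *Wwtr1* not without the first iBEC or the first iHP library of L1L2_Alb either. *Yap1* was at 23.9 to 28.3 RPKM in the controls and at 24.4 to 37.5 RPKM in the mutants, with a log2 fold change of 0.17 (adjusted p = 0.566). *Tead2* had -1.35 (adjusted p = 0.0717, unadjusted p = 0.00912) and was at 23.1 RPKM in control iHB against 2.52 RPKM in L1L2_Alb iHB.

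Markers of other cells were not evenly distributed over the libraries. The mesothelial list (*Msln*, *Upk3b*, *Upk1b*, *Lrrn4* and *Wt1*, 5 of 5 in the table) summed to 111 to 272 RPKM in the controls and 1064 to 3613 RPKM in the mutants. *Msln* made up most of it and differed by 3.61 on the log2 scale (standard error 0.3, adjusted p = 9.3e-04 by limma), and 2 of the 4 tested genes of the list were called higher, whereas *Lrrn4* was at 0 in 4 libraries and at most 0.334 RPKM in the others. The mesenchymal list (9 of 9) summed to 2517 to 4144 RPKM in the controls and 667 to 3618 RPKM in the mutants, with 0 of 9 genes called by limma in either direction (6 lower at an unadjusted p under 0.05) and a median log2 fold change of -1.14. Of the hepatocyte genes 4 of 8 were called lower, and of the biliary genes 2 of 6 were called higher, *Krt7* and *Krt19*, and 1 lower. Over all genes tested, 6.2% were called higher and 3.37% lower. *Spp1* was lower in each mutant library, with 6027 and 10760 RPKM in iBECs against 23271 RPKM in control. *Apoa1* was higher in mutant iHB (8670 against 2451 RPKM) and iHPs, and lower in mutant iBECs. The hepatocyte list summed to 8483 to 16638 RPKM in the controls and 7751 to 12580 RPKM in the mutants. The biliary list summed to 2589 to 23475 and 2482 to 11819 RPKM, respectively. The hepatoblast list (3 of 3) summed to 1020 to 4468 RPKM in the controls and 1522 to 3998 RPKM in the mutants, with 0 genes called by limma and 1 lower at an unadjusted p under 0.05. The endothelial list summed to at most 23.7 RPKM and the macrophage and leukocyte list to 214 to 508 RPKM, with 0 genes called in each by limma. At an unadjusted p under 0.05, 1 endothelial gene was higher, 1 endothelial gene lower and 1 macrophage and leukocyte gene lower. The erythroid list summed to 2.55 to 107 RPKM in the controls and 1.57 to 21.97 RPKM in the mutants, with 1 of 2 tested genes called lower. The part of these differences in the levels of the 10 target genes was not tested.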

How the data were processed

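RNA of 8 libraries (3 control, 5 L1L2_Alb) was sequenced after TruSeq preparation. The authors deposited 1 table of RPKM values, a unit inferred from the values because short genes changed in whole steps. The submitters' processing notes name Bowtie 0.12.2 and mm8 without a role, and the counting method is not given in the sources used here. Of 23471 entries, 4 of 2 repeated symbols were left out. The depth and, for 8 of the 10 members, whole reads (within 0.02) were recovered from the steps, and reads were used only as description.

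On log2(RPKM + 1), the fits took genes whose mean reached 1 RPKM and used limma 3.58.1 under R 4.3.3 (eBayes with trend, Benjamini-Hochberg over 13421 genes, two-sided, threshold 0.05). The additive fit of genotype and stage, which assumes the same genotype effect in each stage, had 4 residual degrees of freedom and the fit of 6 conditions 2. The procedure was tested on simulated data. Comparisons within a stage, and between control stages, are descriptions, with limma contrasts in the fit of 6 conditions added after seeing the data. Members and lists were chosen with earlier results of these data known. The genes named are the 10 members, the signature genes called or under the filter and those at the ends of the rest, and, for *Ctgf*, *Cyr61* and *Ankrd1*, the 3 genes of highest correlation. *Yap1*, *Tead2* and the single markers named were chosen after their values were seen. Alternatives were pseudocount 0.1, upper-quartile (percentile 75) or quantile scaling, no filter or a mean of 5 RPKM, eBayes without trend, leaving out libraries or stages, averaging libraries and, for the L1L2_Alb iBECs against iHPs, the replicate number as a block. Promoters came from RefSeq (GRCm38.p6). Python 3.11.15, numpy 2.4.6, pandas 2.3.3 and matplotlib 3.10.9 were used for tables and figures.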

Additional observations from a re-analysis of the deposited data

Results flagged for a closer look

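In 3 genes of the pathway outside the 10 members, all mutant libraries of 1 stage moved in the opposite direction to those of another on the log2(RPKM + 1) scale. *Nuak2*, a kinase related to AMPK, was below control by -0.63 in iHB and by a mean of -0.61 in iHPs, and above it by a mean of 0.57 in iBECs. *Arhgef17* differed from control by -0.21 in iHB and 0.43 in iBECs, and *Vgll4*, a competitor of YAP for TEAD, by -0.11 in iHB and 0.35 in iHPs. This comparison of directions is no test, and iHB has 1 mutant library. The share of all genes that meet the same rule is not given, so the count does not set these genes apart from others. In the F test of limma for a difference between stages the unadjusted p was 0.0894 for *Nuak2*, 0.525 for *Arhgef17* and 0.615 for *Vgll4*. No condition has more than 2 libraries, so single libraries were not examined as outliers.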

How the results depend on the processing

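In the genotype effect, 832 genes were higher and 452 lower as reported. Without the filter the counts were 475 and 211, and without 1 L1L2_Alb library 480 to 887 and 234 to 440, the lowest without the second iBEC library and without the first iHP library. Without a whole stage they were 228 and 98 (iHB), 113 and 19 (iHP) and 523 and 873 (iBEC), with fewer libraries in each fit, and averaging the libraries of a condition gave 257 lower. Genes called higher were 64.8% of calls as reported, 49.1% after upper-quartile scaling, 53.1% after quantile normalization and 37.5% without the iBEC stage. The members called higher numbered 7 in each of the other 11 alternatives, and 5, 3 and 5 without the iHB, iHP and iBEC stage. The log2 fold change changed sign for *Fjx1* without the second iHP library (0.28) or the first iBEC library (0.043), in a range of -0.32 to 0.28 without 1 library, and without the iHP stage (0.12) or the iBEC stage (0.020), for *Rbms3* without the iHB stage (0.065), for *Nuak2* without the iHP stage (0.058) for *Arhgef17* without the iBEC stage (-0.067), and for *Vgll4* after upper-quartile scaling (-0.013), quantile normalization (-0.025) and without the iHP stage (-0.096). None of these was called. Genes called between iHP and iHB numbered 3 after upper-quartile scaling, 4 at a mean of 5 RPKM and 0 to 1 without 1 library, and signs turned for *Nt5e* (0.065 upper-quartile, 0.0050 quantile), for *Myof* (0.0093 upper-quartile) and, without 1 iHP library, for *Nt5e* (-0.28 to 0.063), *Ankrd1* (-0.0041 to 0.45) and *F3* (-0.23 to 0.057). Between iBEC and iHB, 768 genes were called, 492 without the filter and 488 to 1739 without 1 library, the members lower were 2 after upper-quartile scaling, 1 without the filter and 2 to 8 without 1 library, and *Ankrd1* turned to 0.13 after upper-quartile scaling. Between iBEC and iHP, 553 genes were called, 211 without the filter and 156 to 987 without 1 library, with 1 member lower without the filter and 1 to 3 without 1 library. Beyond the smaller number of libraries or genes, the cause was not tested.

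Between the L1L2_Alb iBECs and iHPs, 492 genes were called, 0 without the filter and 0 to 126 without 1 library, in which case the lone library is assumed to vary like the other condition. Without 1 library *Fjx1* ranged from -1.85 to 0.15, positive without the first iHP library, and *Ankrd1* from -0.57 to 0.34, positive without the second iHP or the second iBEC library (0.25). With the replicate block 911 genes and 1 member, *Crim1*, were called. Deviations of same-numbered libraries had a correlation of -0.0216 over genes. With 2 libraries per condition this value cannot decide whether they share an embryo or culture, which the labels do not say. The median of the members had an SD of 0.211 between paired libraries, and moved further than that after upper-quartile scaling in the first and second iBEC library (0.93 and 1.18), between control iBEC and iHB (-0.76) and between control iBEC and iHP (-0.61), and after quantile normalization in the second iHP library (1.11), the second iBEC library (1.12) and between control iBEC and iHB (-0.92). After upper-quartile scaling r was 0.984 for *Eif2b2* with *Ctgf*, 0.969 for *Tbc1d10a* with *Cyr61* and 0.902 for *Ndufs3* with *Ankrd1*. In each library *Fjx1*, at 67 to 1262 reads, had fewer reads than the other members with recovered reads, which had at least 542. Its 366 and 67 reads in the L1L2_Alb iHP libraries came at depths of 18436865 and 21308633 reads. The reason for this gap was not tested. With 1 control per stage, the error of a control value is unknown.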
